A study of Mus musculus with 18 samples.

Results

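The 37 genes described here build and fold proteins in the endoplasmic reticulum (ER), or sense and relieve protein folding stress there. They were chosen by symbol: every array probe annotated to 1 of the 37 listed symbols alone was taken. By this rule 36 of the 37 genes were measured, with 40 probes, among 22180 genes on the array. Pdia4, an ER protein disulfide isomerase, is covered only by a probe that is also assigned to the microRNA gene Mir704, and it is reported apart. By role, the measured genes are 9 ER lumen chaperones and cofactors, 4 disulfide and lectin chaperones, 6 sensors and transcription factors of the unfolded protein response (UPR), 7 genes of ER-associated degradation (ERAD), 3 of the translocon and 7 of N-glycosylation.

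The arrays hold RNA of small intestinal phagocytes that were sorted from male or female VDTR mice 4 hours after an intraperitoneal dose of diphtheria toxin at 2 ng per kg. In this line, as background, intestinal epithelial cells make a fusion of the toxin receptor and green fluorescent protein (GFP), so that a GFP-plus phagocyte is taken to hold epithelial material. Among live cells with CD45, CD11c and MHCII, 3 populations were sorted: CD103 dendritic cells (DCs), with CD103 and CD24; CD64 macrophages that carry CD11b and CD103, called here macrophages with CD103; and CD64 macrophages gated on CD11b, called here macrophages without CD103 for short, although the labels only leave CD103 unnamed and do not state that it was absent. A GFP gate split each population in a plus and a minus fraction, which gave 6 groups of 3 arrays. All groups received the toxin, so none of the comparisons is with untreated mice. The sources used here do not give the age of the mice.

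Values are log2 and centred on each probe's own median over the 18 arrays. A value of 0 is therefore that probe's middle array, and neither the absolute level of a gene nor its detection above background can be read. All-gene shares below include genes that may lie at background, whose differences sit near 0. The labels do not say whether the 3 replicates came from separate mice, so the p-values rest on the spread among these arrays alone, which may be technical. Sorted fractions are bulk samples, in which fewer cells of a type and less RNA per cell cannot be told apart. Markers separated DCs from macrophages, but these lists do not tell the macrophage populations apart: the mean of 9 DC markers was 2.46 to 2.82 on the DC arrays and -1.13 to 0.60 on the macrophage arrays, and the mean of 10 macrophage markers was -5.23 to -3.90 on the DC arrays and -0.07 to 0.56 on the macrophage arrays.

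Proteins that enter the secretory pathway pass through the Sec61 channel into the ER, where they are glycosylated by the oligosaccharyltransferase and folded by chaperones such as BiP, the product of Hspa5. When unfolded proteins build up, the sensors IRE1 (Ern1), PERK (Eif2ak3) and ATF6 start the UPR, which raises chaperones and ERAD factors through XBP1, ATF6 and ATF4. Dendritic cells are known for a basally active IRE1 and XBP1 branch.

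Many UPR target genes carry the ER stress response element (ERSE) in their promoters, the box CCAAT followed after 9 bases by the box CCACG, which is bound by NF-Y and ATF6 or XBP1. The promoter table of RefSeq (GRCm38.p6, 250 bases before to 50 after each start) held 30 of the 37 members. Both boxes at this spacing, on either strand, were found in 9 of these 30 members (30.0%), against 37 of 27025 genes in the table (0.137%). The list holds UPR genes, and many UPR targets carry this element. The share among members is therefore not independent of the choice by symbol. The matching stretches are shown for the 9 members that hold the element. Each is given 5′ to 3′ on the strand of its gene, with 10 bases on either side of the matches and both boxes in capitals (CCAAT and CCACG, or CGTGG and ATTGG where the element runs the other way).
Hspa5 (chr2:34772015-34772053, + strand): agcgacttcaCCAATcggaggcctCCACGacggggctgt
Calr (chr8:84847065-84847103, - strand): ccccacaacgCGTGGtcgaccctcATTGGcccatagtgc
Derl3 (chr10:75893232-75893270, + strand): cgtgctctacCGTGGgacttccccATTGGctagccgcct
Hsp90b1 (chr10:86705523-86705666, - strand): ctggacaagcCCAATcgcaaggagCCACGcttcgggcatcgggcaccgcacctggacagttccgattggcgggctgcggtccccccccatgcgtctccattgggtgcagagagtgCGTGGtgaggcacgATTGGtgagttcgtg
Canx (chr11:50325790-50325828, - strand): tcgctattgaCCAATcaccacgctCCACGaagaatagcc
Pdia6 (chr12:17266481-17266519, + strand): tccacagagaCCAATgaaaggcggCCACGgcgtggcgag
Dnajc3 (chr14:118937817-118937855, + strand): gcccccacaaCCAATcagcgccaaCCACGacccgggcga
Creld2 (chr15:88819510-88819548, + strand): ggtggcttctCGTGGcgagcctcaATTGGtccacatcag
Syvn1 (chr19:6046522-6046560, + strand): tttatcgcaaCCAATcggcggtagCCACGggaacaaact
Hsp90b1 holds both orientations in 1 stretch. The related ERSE-II, ATTGG and CCACG separated by 1 base, was found in 2 members, Herpud1 and Dnajb11, and in 0.0444% of genes. The box CCACG alone occurred in 24 of 30 members (80.0%) and 35.5% of genes. The box CCAAT occurred in 25 members (83.3%) and 41.1% of genes, and any match to ERSE is also a match to each box. The core ACGT, a part of the XBP1 site, was found in 12 members (40.0%) and in 33.8% of genes. The UPR element TGACGTGG was found in 0 members and 0.714% of genes, and the amino acid response element TGATGCAAT in 0 members and 0.222%. These are matches to letters in a 300-base window and say nothing about binding.

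**Figure D1:**
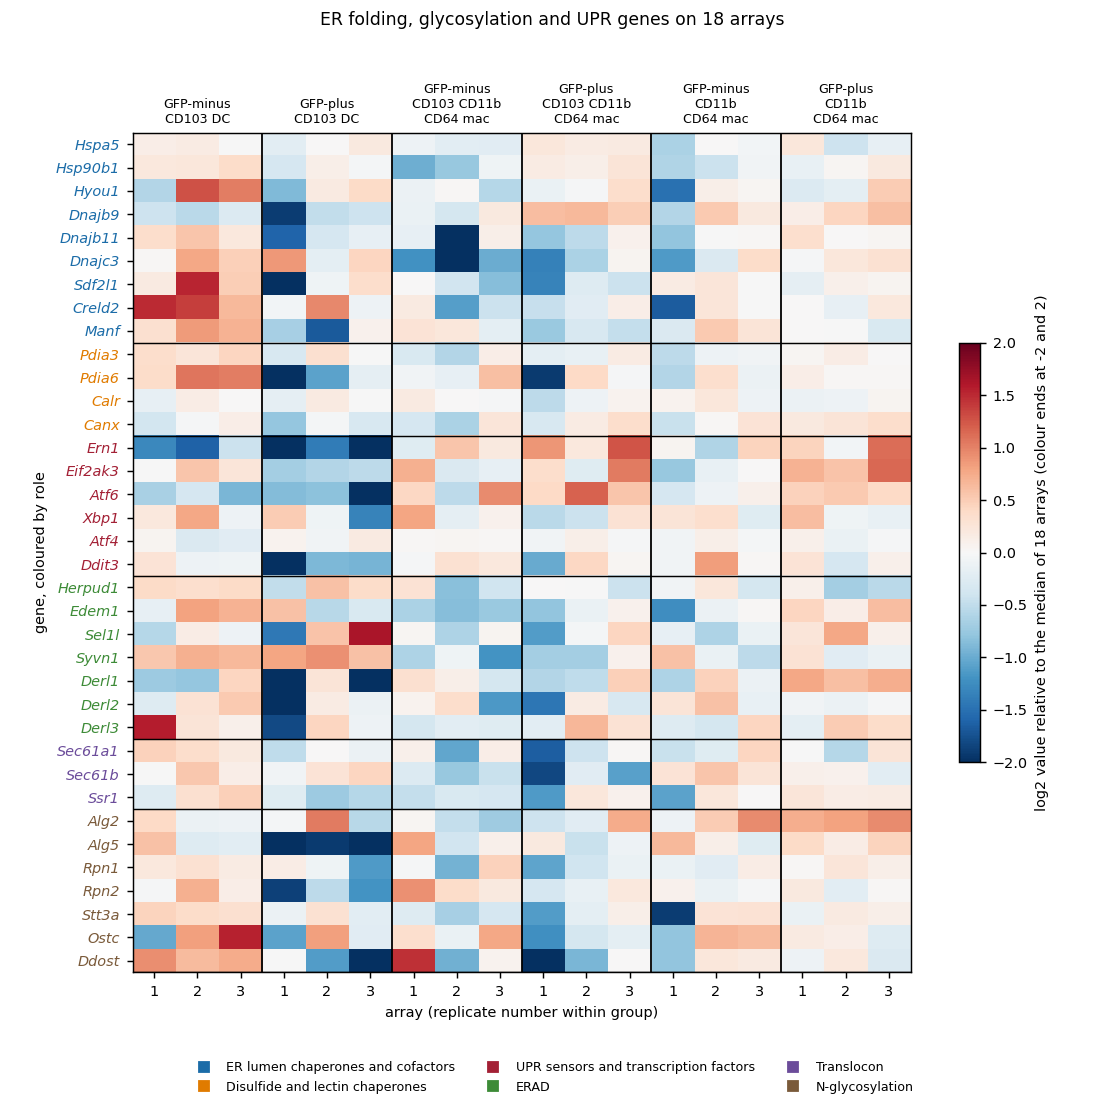
Values of the 36 measured genes on all 18 arrays (columns, by group and replicate number), as log2 values with the probe's median of 18 arrays at 0, with genes ordered by role and row labels coloured by role. Blue cells are below the median and red above it; the GFP-plus CD103 DC columns hold the lowest values of Alg5, -3.79 to -1.92.

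In DCs, most genes of this set lay lower in GFP-plus than in GFP-minus cells. Of the 36 members, 31 had a change below 0, against 52.9% of all genes. The changes of all genes also reached further down than up, with a 5th percentile of -1.36 and a 95th of 0.51. The part of this general skew in the member values was not tested. The median change of the members was -0.60 (log2) against -0.02 for all genes. By role it was -0.74 for UPR sensors and transcription factors, -0.68 for ER lumen chaperones and cofactors and -0.60 for N-glycosylation. For the translocon, ERAD and disulfide and lectin chaperones it was -0.55, -0.54 and -0.32. With limma's moderated test and Benjamini-Hochberg adjustment over all genes, 2 of the 36 passed the threshold of 0.05, both lower, where 1.58% of all genes passed and 1.26% passed lower. Alg5, which makes the dolichol-phosphate glucose that serves in assembly of the glycan, and Rpn2, a subunit of the oligosaccharyltransferase, were those genes. Both belong to the N-glycosylation role, and neither passed after quantile normalization. At an unadjusted p under 0.05, 11 members were lower and 0 higher, where 15.4% of all genes had such a p. In 12 members all 3 GFP-plus arrays lay below all 3 GFP-minus arrays, and in 0 above, where 20.1% of all genes did not overlap and 11.5% did so downwards.

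Alg5 had 0.59, -0.26 and -0.20 on the GFP-minus DC arrays and -3.79, -1.92 and -3.66 on the GFP-plus DC arrays. On the macrophage arrays, GFP-plus and GFP-minus, it ran from -0.44 to 0.80. The 3 GFP-plus DC arrays were thus the lowest of the 18, without overlap with any other group. Alg5 fell by 3.16 (log2 -3.16 ± 0.44 SE, adjusted p = 0.00304), which is 8.96-fold on this scale. The call was lost after quantile normalization (-1.80, adjusted p = 0.0814) and in a fit of the 2 DC groups alone (adjusted p = 0.113), and over the alternatives the adjusted p ran from 0.0031 to 0.113.

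Rpn2 had -0.02, 0.71 and 0.14 in GFP-minus DCs and -1.87, -0.52 and -1.19 in GFP-plus DCs, which do not overlap. It fell by 1.47 (log2 -1.47 ± 0.30 SE, adjusted p = 0.0281). This call rested on few arrays: the limma adjusted p was 0.0831 without GFP-plus DC replicate 1, 0.0638 without its replicate 3, and 0.114 and 0.0675 when replicate 2 or replicate 3 of the GFP-minus DCs was left out. It was also lost after quantile normalization (-0.85), without the 4 arrays of lowest weight (adjusted p = 0.08) and in the fit of the 2 groups alone, with an adjusted p from 0.0262 to 0.213 over the alternatives. Of the other 5 N-glycosylation genes none passed. Ddost, another subunit of the transferase, had 0.94, 0.63 and 0.75 against -0.01, -1.12 and -2.27 (-1.90 ± 0.68 SE, adjusted p = 0.183), and it passed without the 4 arrays of lowest weight (-2.47, adjusted p = 0.0227). Ostc, Rpn1, Stt3a (the catalytic subunit) and Alg2 (a mannosyltransferase) had changes of -0.60, -0.59, -0.39 and 0.09. In 5 of the 7 N-glycosylation genes the 3 GFP-plus arrays lay below the 3 GFP-minus arrays, where 11.5% of all genes did so.

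The probe shared by Pdia4 and Mir704 had -0.09, 0.02 and -0.05 in GFP-minus DCs and -1.90, -1.70 and -0.99 in GFP-plus DCs. The arrays of these groups do not overlap, and on all macrophage arrays the probe lay between -0.30 and 0.36. Its signal fell by 1.49 (log2 -1.49 ± 0.21 SE, adjusted p = 0.00597), adjusted over the 10272 probes with several symbols or none, of which 0.38% passed lower. Transcripts of the 2 genes cannot be told apart on this probe. The call was lost after quantile normalization (-0.94, adjusted p = 0.104) and in the fit of the 2 groups alone (adjusted p = 0.158), in a range from 0.00579 to 0.158 over the alternatives.

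Among disulfide and lectin chaperones 0 of 4 passed in DCs. Pdia6, a disulfide isomerase that works with BiP, had 0.36, 1.07 and 1.02 in GFP-minus and -2.27, -1.08 and -0.18 in GFP-plus cells. These arrays did not overlap, but the change missed the threshold (-2.00 ± 0.55 SE, adjusted p = 0.0909). It passed with array weights (-1.99, adjusted p = 0.0482) and without the 4 arrays of lowest weight (-1.45, adjusted p = 0.0491). Pdia3, the isomerase that works with calnexin and calreticulin on glycoproteins, had 0.34, 0.24 and 0.43 in GFP-minus and -0.32, 0.32 and -0.01 in GFP-plus cells (-0.34 ± 0.20 SE, adjusted p = 0.446). The lectin chaperones themselves sat closer to 0, with Canx at -0.29 and Calr at 0.01.

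All 9 ER lumen chaperones and cofactors had a change below 0 in DCs, from -1.84 to -0.06 with a median of -0.68, and 0 passed. Manf, a secreted ER stress factor, came nearest, with 0.33, 0.85 and 0.69 against -0.66, -1.68 and 0.09 (-1.37 ± 0.34 SE, adjusted p = 0.0637). It passed with array weights (-1.51, adjusted p = 0.0378) and without GFP-plus DC replicate 3 (-1.79, adjusted p = 0.0132). Sdf2l1, a cofactor of BiP, had 0.17, 1.52 and 0.49 against -3.60, -0.09 and 0.35 (-1.84 ± 0.74 SE, adjusted p = 0.246), where GFP-plus replicate 1 alone lay far below. Hspa5 itself was at -0.10 with a 95% interval from -0.49 to 0.29, which bounds the difference in its mRNA between the gates.

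Among the UPR sensors and transcription factors 0 of 6 passed, and 3 had an unadjusted p under 0.05. Ddit3, which encodes CHOP, had 0.27, -0.10 and -0.09 in GFP-minus and -3.77, -0.89 and -0.93 in GFP-plus DCs, without overlap (-1.89 ± 0.60 SE, adjusted p = 0.13). Eif2ak3 had -0.01, 0.56 and 0.24 and -0.68, -0.58 and -0.53, also without overlap (-0.86 ± 0.33 SE, adjusted p = 0.219). Ern1, Atf6 and Xbp1 had changes of -0.95, -0.63 and -0.59, and Atf4 was the 1 member of this role above 0, at 0.22. Of the 7 ERAD genes 0 passed, with a range from -1.29 (Derl1, a channel component) to 0.43 (Sel1l, the adaptor of the ligase Syvn1). Derl1 had -0.73, -0.78 and 0.43 against -2.13, 0.26 and -3.10 and passed without GFP-plus replicate 2 (-2.25, adjusted p = 0.0172). Edem1, a mannosidase-like factor that marks glycoproteins for degradation, had -0.16, 0.81 and 0.69 and 0.58, -0.55 and -0.31 (-0.54 ± 0.37 SE, adjusted p = 0.529). The 3 translocon genes had changes from -0.69 to -0.01. Ssr1, a subunit of the translocon-associated complex, had -0.27, 0.33 and 0.48 and -0.23, -0.72 and -0.56 (-0.69 ± 0.35 SE, adjusted p = 0.376). GFP-plus replicate 1 of Ssr1 lay within the GFP-minus range.

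Members with ERSE in the promoter had a median change of -0.29 (9 genes, 2 above 0), and the 20 measured members with a promoter in the table and no ERSE had a median of -0.64 (2 above 0). This is a description of members that differ in many other ways.

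**Figure D2:**
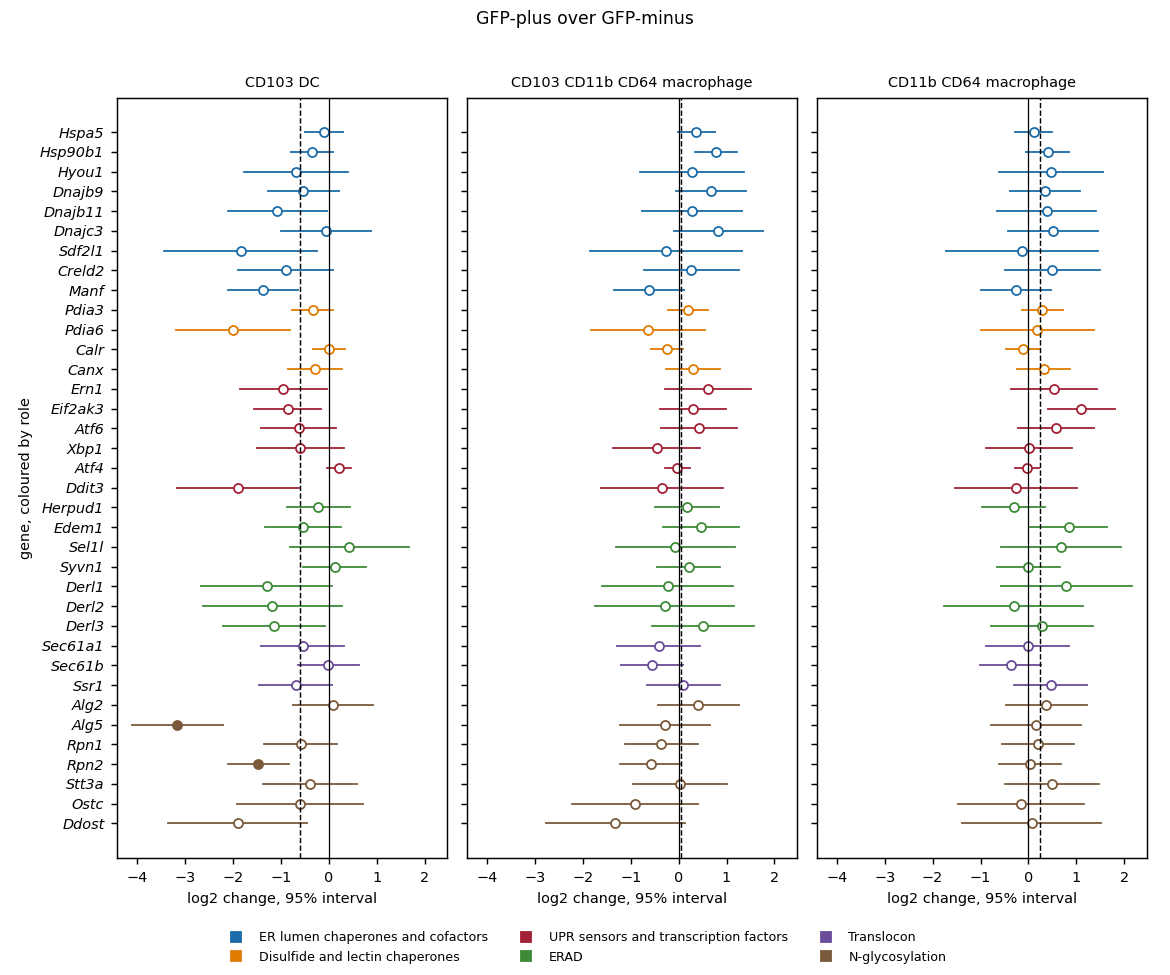
Log2 change of GFP-plus over GFP-minus for each of the 36 genes, with its 95% interval, in each population; filled points passed the adjusted threshold, the dashed line is the median of the 36 genes and the solid line is 0. In CD103 DCs 31 of 36 genes lie left of 0 and Alg5 and Rpn2 are filled, while in both macrophage populations no point is filled.

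In the macrophages with CD103, CD11b and CD64, 0 of 36 members passed (0.0541% of all genes did) and 1 had an unadjusted p under 0.05, where 9.2% of all genes had one. Hsp90b1, the ER form of HSP90, had -0.97, -0.75 and -0.08 in GFP-minus and 0.16, 0.11 and 0.26 in GFP-plus cells, with every GFP-plus array above every GFP-minus array (0.78 ± 0.21 SE, adjusted p = 0.192). Without GFP-minus replicate 3 of this population it passed (1.04, adjusted p = 0.0375). Members were split evenly, with 19 above and 17 below 0 and a median of 0.06. This median moved to 0.29 without GFP-plus replicate 1 of this population and to -0.078 without GFP-minus replicate 2, both arrays of low weight. Between these gates the mean of the lymphocyte markers ran from 0.91 to 2.46 on GFP-minus and from -0.17 to 0.76 on GFP-plus arrays, and that of the monocyte markers from 0.55 to 1.15 and from -0.47 to 0.20; their part was not tested. In 5 members the arrays did not overlap, 3 upwards and 2 downwards, beside 13% of all genes.

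In the macrophages with CD11b and CD64, 0 of 36 members passed (0.0271% of all genes did), and 2 had an unadjusted p under 0.05, both higher, beside 6.16% of all genes. These were Eif2ak3, with -0.76, -0.15 and 0.01 in GFP-minus and 0.69, 0.57 and 1.15 in GFP-plus cells (1.10 ± 0.33 SE, adjusted p = 0.529), and Edem1, with -1.24, -0.11 and 0.02 and 0.43, 0.13 and 0.62 (0.84 ± 0.37 SE, adjusted p = 0.8). Most members lay above 0, 26 of 36 beside 51.9% of all genes, with a median of 0.24, which moved to 0.074 without GFP-minus replicate 1 of this population, an array of low weight. Between these gates the mean of 8 monocyte markers ran from 0.62 to 1.16 on GFP-minus and from -0.63 to -0.28 on GFP-plus arrays (7 of 8 below 0, 1 called lower), and that of 16 enterocyte markers from -0.57 to -0.31 and from 0.13 to 0.55; their part was not tested. In 7 members the arrays did not overlap, 6 upwards and 1 downwards, where 15.9% of all genes did not.

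The GFP effect in DCs minus the mean GFP effect of both macrophages was tested as an interaction. The difference was below 0 for 31 of 36 members, beside 52.8% of all genes, with a median of -0.93 beside -0.03 for all genes. All genes again reached further down than up, with a 5th percentile of -1.72 and a 95th of 0.62. Of the members 1 passed, Alg5, at -3.10 ± 0.54 (SE), adjusted p = 0.015, where 1.33% of all genes passed and 1.15% passed lower. This call was lost after quantile normalization (-1.63, adjusted p = 0.157) and without the 4 arrays of lowest weight (-2.67, adjusted p = 0.0513), and the alternatives ran from 0.0124 to 0.157. Of the 36 members 16 had an unadjusted p under 0.05, all lower, beside 16.5% of all genes. Eif2ak3 (-1.56 ± 0.40 SE, adjusted p = 0.0702), Hsp90b1 (-0.94 ± 0.25 SE, adjusted p = 0.0844) and Rpn2 (-1.19 ± 0.36 SE, adjusted p = 0.116) did not reach the threshold. Leaving out 1 array brought some members past it, with adjusted p from 0.02 to 0.0489: Derl1 and Rpn2 without GFP-plus DC replicate 2, Hsp90b1 without GFP-minus replicate 3 of either macrophage population, Eif2ak3 when replicate 1 of the GFP-minus or 2 of the GFP-plus macrophages with CD103 was left out, and Pdia6 without GFP-plus replicate 1 of those. For the probe of Pdia4 and Mir704 the difference passed at -1.51 ± 0.26 (SE), adjusted p = 0.0315, where 0.165% of the probes with several symbols or none passed lower. It was lost after quantile normalization (adjusted p = 0.177), without the 4 arrays of lowest weight (adjusted p = 0.0709) and without any 1 of 8 arrays, with adjusted p from 0.0554 to 0.0795: GFP-plus DC replicate 1, GFP-minus DC replicates 2 and 3, GFP-minus replicate 2 and GFP-plus replicate 2 of the macrophages with CD103, and GFP-minus replicate 1 and GFP-plus replicates 1 and 3 of those without.

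The arrays of lowest estimated weight moved with these genes. The 4 of lowest weight were GFP-plus DC replicate 1, GFP-minus CD103 CD11b CD64 macrophage replicate 2, GFP-plus replicate 1 of that population, and GFP-minus CD11b CD64 macrophage replicate 1. In each, the median of the 36 members was the lowest of its group, from -0.58 to -0.37, while on the other 14 arrays it ran from -0.17 to 0.34. Without these 4 arrays the median change in DCs was -0.44 and the interaction median was -0.63. That omission did not even out the DC gates. GFP-plus DC replicates 2 and 3, which it kept, had weights of 0.664 and 0.617, and the GFP-minus DC arrays 0.637, 2.23 and 1.43. The interquartile range over all genes was 0.669, 0.431 and 0.536 on the GFP-plus DC arrays. On the GFP-minus DC arrays it was 0.406, 0.301 and 0.319. The part of array quality in the results was not tested. Markers of mature DCs and of other cells also moved with the GFP gate in DCs. All 6 mature DC markers had a change above 0, with 3 called higher, and their mean ran from 0.04 to 0.48 on GFP-minus and from 2.33 to 3.07 on GFP-plus DC arrays. The mean of 16 enterocyte markers ran from -0.27 to 0.01 and from 0.50 to 0.80 (13 above 0, 1 called higher, median change 0.32). The mean of 13 Paneth and goblet markers ran from -0.26 to -0.23 and from 0.17 to 0.68 (9 above 0 and 4 below, 1 called higher, median change 0.20). The mean of 8 plasma cell markers outside the 36 genes, of which 3 belong to the wider ER list used below and 0 passed, ran from -0.20 to 0.18 and from -0.76 to -0.63. Lower in GFP-plus DCs were the means of 12 lymphocyte markers (0.10 to 0.80 against -0.43 to -0.23), of 8 monocyte markers (-0.20 to 0.28 against -0.90 to -0.49) and of 5 B cell markers (-0.14 to 0.20 against -0.61 to -0.41). Of the monocyte markers 5 lay below 0 and 3 above, with 0 called and a median change of -0.07. For the lymphocyte markers these were 10 below, 2 above, 1 called lower and -0.37, and for the B cell markers 4, 1, 1 and -0.53. Of 10 macrophage markers 9 had a change below 0 and 1 was called lower, with a median change of -0.77 and array means of -4.89 to -3.90 against -5.23 to -4.81. The part of these markers in the ER gene values was not tested.

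**Figure D3:**
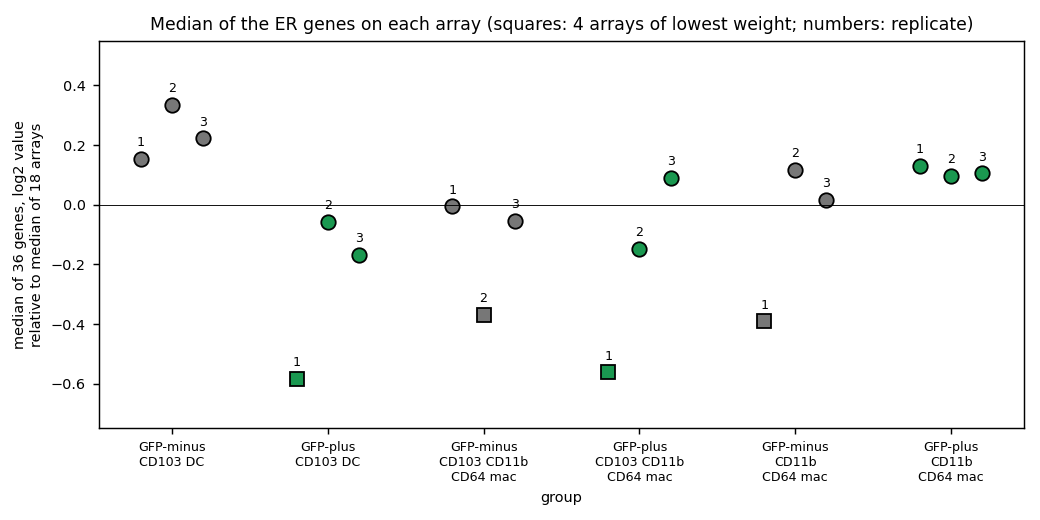
Median of the 36 genes on each array, as log2 value relative to the median of 18 arrays (vertical axis), by group; numbers give the replicate, green points are GFP-plus and grey GFP-minus, and squares mark the 4 arrays of lowest weight. The squares lie at -0.58 to -0.37 and all other points between -0.17 and 0.34.

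Populations were compared as means over both GFP gates. Against macrophages with CD103, 9 of 12 lymphocyte markers lay lower in DCs (median -1.03, 4 called lower and 1 higher). Of 8 monocyte markers 7 lay lower there (median -0.49, 2 called lower). Against those without CD103 the lymphocyte median was 0.04, and 7 of 8 monocyte markers lay lower (median -0.44, 1 called lower). The part of these markers was not tested. Against macrophages with CD103, Dnajc3, Syvn1 and Sec61b were called higher in DCs, and Ern1, Atf6, Dnajb9 and Alg5 lower. Of the 36 members 7 passed (7.93% of all genes did), 3 higher in DCs (2.6%) and 4 lower (5.33%). All 6 UPR sensors and transcription factors lay below 0, from -2.07 to -0.01, while 8 of 9 ER lumen chaperones and cofactors and all 3 translocon genes lay above 0. Of all genes 54.5% lay below 0 and 45.5% above. The median of the 36 members depended on the gate, at 0.48 in GFP-minus and -0.19 in GFP-plus arrays alone.

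Syvn1, the ERAD ubiquitin ligase HRD1, had 0.54, 0.71 and 0.66 and 0.79, 0.91 and 0.58 in GFP-minus and GFP-plus DCs, and -0.62, -0.09 and -1.19 and -0.67, -0.68 and 0.09 in GFP-minus and GFP-plus macrophages with CD103. No DC array overlapped with these. In the macrophages without CD103 the values were 0.58, -0.13 and -0.53 and 0.29, -0.23 and -0.14, of which GFP-minus replicate 1 reaches the DC range. It was higher in DCs by 1.22 ± 0.22 (SE), adjusted p = 0.00194, under every alternative run; against the macrophages without CD103 it missed the threshold (0.72 ± 0.22 SE, adjusted p = 0.0581). This second difference passed with columns centred (adjusted p = 0.0431), array weights (0.0293), without the 4 arrays of lowest weight (0.0157), in the fit of the groups compared (0.0316) and without GFP-minus replicate 1 of those macrophages (0.87, adjusted p = 0.0157). Dnajc3, which inhibits PERK and assists BiP, had 0.03, 0.77 and 0.48 and 0.86, -0.20 and 0.43 in DCs, against -1.22, -2.23 and -0.99 and -1.36, -0.64 and 0.05 in the macrophages with CD103. The values overlap through 1 DC array of each gate and 1 GFP-plus macrophage array. It was higher in DCs by 1.46 ± 0.31 (SE), adjusted p = 0.00776, and with GFP-plus arrays alone it missed the threshold (1.01, adjusted p = 0.224). In macrophages without CD103 it had -1.13, -0.28 and 0.37 and -0.03, 0.23 and 0.30, and the difference of DCs from these missed the threshold (0.48, 95% interval -0.18 to 1.15, adjusted p = 0.468).

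Sec61b, a subunit of the Sec61 channel, had -0.01, 0.54 and 0.12 and -0.06, 0.28 and 0.42 in DCs, -0.28, -0.76 and -0.44 and -1.81, -0.23 and -1.09 in macrophages with CD103, and 0.28, 0.55 and 0.27 and 0.09, 0.09 and -0.21 in those without. The macrophages with CD103 lay below the DCs on every array. The difference was 0.99 ± 0.21 (SE), adjusted p = 0.00844, but its 2 probes differed in size: 1.55 (adjusted p = 0.0366) and 0.42 (adjusted p = 0.199). The call was lost in GFP-minus arrays alone (0.71, adjusted p = 0.296). Against the macrophages without CD103 the difference was 0.04, adjusted p = 0.961.

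Ern1, which encodes the sensor IRE1, had -1.29, -1.61 and -0.43 in GFP-minus and -2.22, -1.40 and -2.59 in GFP-plus DCs. In macrophages with CD103 it had -0.25, 0.56 and 0.20 and 0.89, 0.20 and 1.25, and in those without CD103 0.06, -0.61 and 0.45 and 0.45, -0.06 and 1.12. The GFP-plus DC arrays lay below every macrophage array, and of the GFP-minus DC arrays only replicate 3 lay within the macrophage range. Ern1 was lower in DCs by -2.07 ± 0.30 (SE), adjusted p = 0.00032 against the macrophages with CD103, and by -1.83 ± 0.30 (SE), adjusted p = 0.000949 against those without. In GFP-minus arrays alone both calls were lost, at -1.28 (adjusted p = 0.139) and -1.08 (adjusted p = 0.256), with the same sign.

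Atf6 had -0.64, -0.34 and -0.91 and -0.86, -0.83 and -2.10 in DCs, 0.41, -0.52 and 0.95 and 0.40, 1.18 and 0.56 in macrophages with CD103, and -0.34, -0.10 and 0.10 and 0.46, 0.53 and 0.40 in those without. GFP-plus DCs lay below all macrophage arrays, and GFP-minus DCs overlapped with 2 of them. Atf6 was lower in DCs by -1.44 ± 0.26 (SE), adjusted p = 0.0024 and -1.12 ± 0.26 (SE), adjusted p = 0.0135, in the same order. In GFP-minus arrays alone the values were -0.91 (adjusted p = 0.273) and -0.52 (adjusted p = 0.652). The remaining UPR members did not pass in either comparison as fitted: Ddit3 was at -0.91 and -1.06, Eif2ak3 at -0.40 and -0.42, Xbp1 at -0.01 and -0.13, and Atf4 at -0.07 and -0.04. Against the macrophages without CD103, Ddit3 passed with array weights (-1.08, adjusted p = 0.0451) and without the 4 arrays of lowest weight (-0.67, adjusted p = 0.0495), and Eif2ak3 in GFP-plus arrays alone (-1.40, adjusted p = 0.0139).

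Dnajb9, a BiP cofactor that is itself an IRE1 target, had -0.42, -0.54 and -0.27 and -1.90, -0.50 and -0.42 in DCs, -0.13, -0.36 and 0.19 and 0.62, 0.65 and 0.48 in macrophages with CD103, and -0.59, 0.52 and 0.20 and 0.13, 0.43 and 0.59 in those without. The GFP-plus macrophage arrays all lay above all DC arrays, and the GFP-minus macrophages overlapped with DCs. It was lower in DCs by -0.92 ± 0.24 (SE), adjusted p = 0.0298 and -0.89 ± 0.24 (SE), adjusted p = 0.0356. Both calls lay close to the threshold and were lost in the fit of the groups compared (adjusted p = 0.0534 and 0.0849). The first was lost without any single array of the CD103 macrophages other than GFP-minus replicate 2, and without GFP-minus DC replicate 1 or 2 (adjusted p from 0.0514 to 0.0698). The second was lost without replicates 2 or 3 of either gate of the other macrophages, or without any GFP-minus DC array (adjusted p from 0.055 to 0.094). In GFP-minus arrays alone they were -0.31 (adjusted p = 0.805) and -0.45 (adjusted p = 0.683).

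Alg5 was lower in DCs by -1.57 ± 0.31 (SE), adjusted p = 0.00487 and -1.79 ± 0.31 (SE), adjusted p = 0.0016, and the probe of Pdia4 and Mir704 by -0.76 ± 0.15 (SE), adjusted p = 0.0141 and -0.95 ± 0.15 (SE), adjusted p = 0.00202, where 1.34% and 1.68% of probes with several symbols or none passed lower. These differences lay in the GFP-plus arrays: in GFP-minus arrays alone Alg5 was at -0.13 in both comparisons, and the shared probe at 0.01 and -0.20. Against the macrophages with CD103, Alg5 was also lost after quantile normalization (-0.85, adjusted p = 0.0714), as was the shared probe (-0.49, adjusted p = 0.136), which was lost too in the fit of those groups alone (adjusted p = 0.0657).

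Against macrophages without CD103, 4 of 36 members passed, all lower in DCs (8.12% of all genes passed, 5.94% lower and 2.17% higher): Ern1, Atf6, Dnajb9 and Alg5. The 36 members had 14 values above 0 and a median of -0.09, which turned to 0.034 without GFP-plus DC replicate 1. This median depended on the gate, at 0.38 in GFP-minus and -0.57 in GFP-plus arrays, as it did against the macrophages with CD103, where it was 0.48 and -0.19. In GFP-minus arrays alone, 3 members passed against the macrophages with CD103, all higher in DCs (1.51% of all genes passed higher): Syvn1, Dnajc3 and Hsp90b1 (0.87, adjusted p = 0.03), and 0 passed against those without (3.3% of all genes did). In GFP-plus arrays alone 7 passed against the macrophages without CD103, all lower, where 7.49% of all genes passed lower. Both comparisons share the same DC arrays and are not independent. Leaving out GFP-plus DC replicate 2 brought Derl1 past the threshold in both (-1.40 and -1.79) and Rpn2 in the first (-0.82). Derl1 passed in the second with array weights too (-1.37, adjusted p = 0.0471) and in GFP-plus arrays alone (-2.35, adjusted p = 0.0317). Rpn2 passed in both in GFP-plus arrays alone (-1.10, adjusted p = 0.0387, and -1.20, adjusted p = 0.0204). In the first comparison Rpn2 also passed without GFP-minus DC replicate 2, Sdf2l1 without GFP-plus DC replicate 1, and Creld2 and Hsp90b1 without GFP-minus replicate 1 and replicate 3 of the macrophages.

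**Figure D4:**
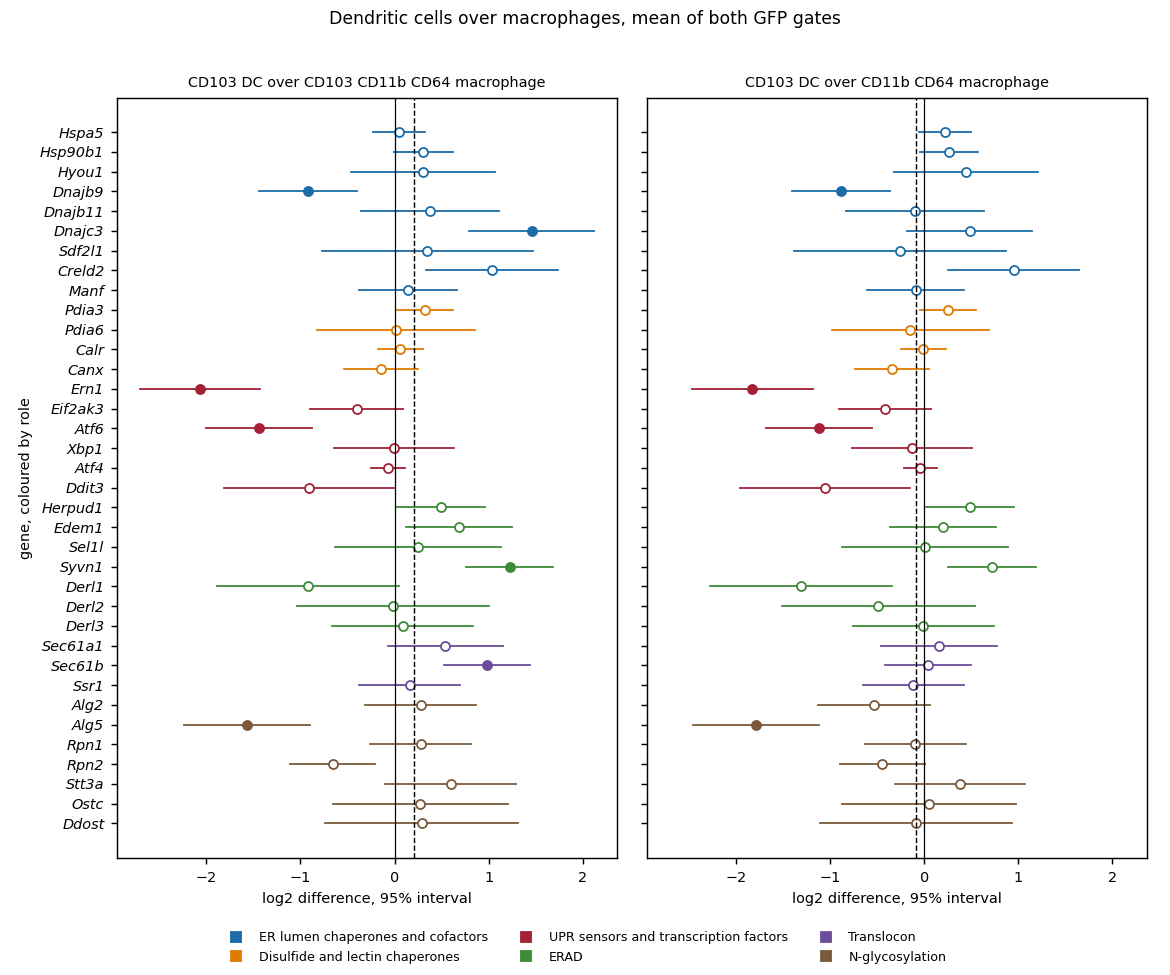
Log2 difference of CD103 DCs over each macrophage population for the 36 genes, mean of both GFP gates, with 95% intervals; filled points passed the adjusted threshold and the dashed line is the median of the 36 genes. Ern1, Atf6, Dnajb9 and Alg5 are filled left of 0 in both panels, and Dnajc3, Syvn1 and Sec61b are filled right of 0 only in the left panel; whether those 3 differ more in that panel is not shown by this plot.

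Between the macrophage populations 0 of 36 members passed (0.0721% of all genes did), and 4 had an unadjusted p under 0.05, beside 5.51% of all genes. All 4 were lower with CD103: Sec61b (-0.95 ± 0.21 SE, adjusted p = 0.213), Dnajc3 (-0.97, adjusted p = 0.638), Alg2 (-0.81, adjusted p = 0.684) and Syvn1 (-0.50, adjusted p = 0.857). Members lay below 0 in 29 of 36 cases, with a median of -0.21, beside 53.1% of all genes. This median moved to -0.042 without GFP-plus replicate 1 and to -0.106 without GFP-minus replicate 2 of the macrophages with CD103, and to -0.122 without GFP-minus replicate 2 of those without. Of 12 lymphocyte markers 9 lay higher with CD103 and 1 was called, with array means in GFP-minus cells of 0.91 to 2.46 against -0.45 to 0.015; their part was not tested. Sec61b passed without GFP-plus replicate 2 of the macrophages with CD103 (-1.15, adjusted p = 0.0236).

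**Figure D5:**
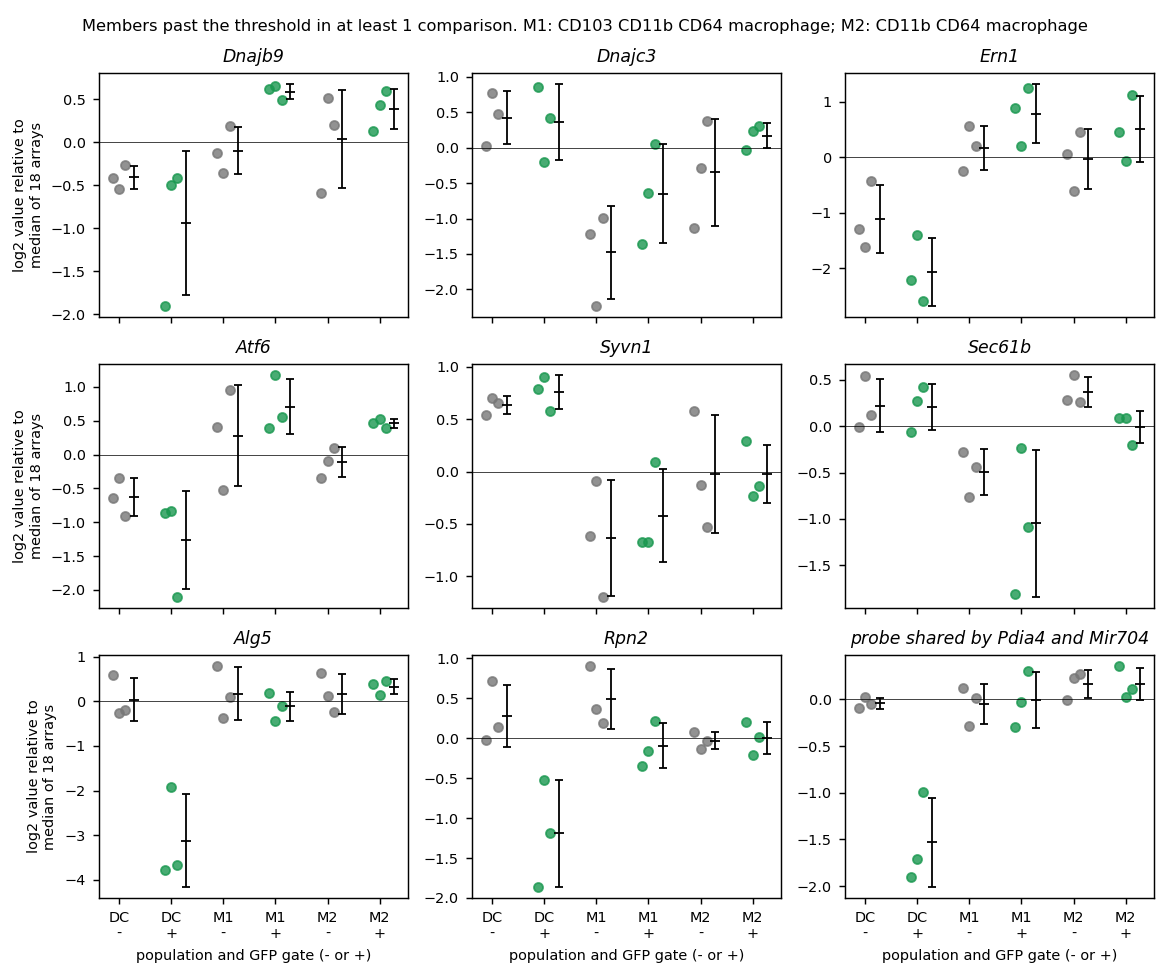
Log2 values relative to the median of 18 arrays (vertical axes) for the 8 members that passed in at least 1 comparison and for the probe shared by Pdia4 and Mir704, by population and GFP gate (grey GFP-minus, green GFP-plus); points are arrays, and the bar beside them is mean ± SD, n = 3. Alg5 in GFP-plus DCs lies at -3.79 to -1.92, below all other arrays.

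A wider list of 111 other ER pathway genes, of which 105 were measured, was drawn up for folding, UPR, ERAD, translocation and glycosylation. In GFP-plus against GFP-minus DCs 4 of the 105 passed, all lower (1.58% of all genes passed, 1.26% lower). Of the 105, 80 lay below 0 (52.9% of all genes) with a median of -0.48. The UPR genes of this list were split: 11 lay above 0 and 9 below, with a median of 0.07, and 2 were called lower and 0 higher. The medians of folding, glycosylation, translocation and ERAD were -0.71, -0.70, -0.55 and -0.41. Mbtps1 and Mbtps2, the proteases that cleave ATF6 in the Golgi to release its active part, fell by 2.06 (log2 -2.06 ± 0.39 SE, adjusted p = 0.0204) and 2.79 (log2 -2.79 ± 0.48 SE, adjusted p = 0.0135). Mbtps2 had 0.71, 0.39 and 0.82 in GFP-minus and -2.64, -1.32 and -2.49 in GFP-plus DCs, and Mbtps1 had -0.30, 0.88 and 0.71 and -1.62, -1.73 and -1.54, without overlap for either. Ganab, the catalytic subunit of ER glucosidase II, fell by 1.37 (log2 -1.37 ± 0.30 SE, adjusted p = 0.0372) and Tram1, a translocating-chain protein, by 0.89 (log2 -0.89 ± 0.19 SE, adjusted p = 0.0348). All 4 calls were lost after quantile normalization (adjusted p from 0.17 to 0.355) and in the fit of the 2 DC groups alone (0.0686 to 0.21). Array weights ended those of Tram1 (0.0561) and Ganab (0.0797), and leaving out the 4 arrays of lowest weight that of Ganab (0.0566). Leaving out single arrays ended each of them, with adjusted p from 0.0521 to 0.133: Tram1 was lost without any DC array but GFP-plus replicate 1, Ganab without any but GFP-plus replicate 2, Mbtps1 when GFP-plus replicate 1 or GFP-minus replicate 2 or 3 was omitted, and Mbtps2 when replicate 1 of the GFP-plus or 3 of the GFP-minus fraction was omitted. In both macrophage populations 0 of 105 passed between the gates.

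Between populations, 11 of the 105 passed in DCs against macrophages with CD103, 7 higher and 4 lower (7.93% of all genes passed, 2.6% higher and 5.33% lower), and 10 against those without, 3 higher and 7 lower (8.12%, 2.17% and 5.94%). The 4 lower in the first were UPR genes: Cebpb, a leucine zipper factor, at -4.38 ± 0.42 (SE), adjusted p = 4.62e-06, Atf3, a target of ATF4, at -1.13, adjusted p = 0.00324, Nupr1, a stress-induced regulator, at -2.22, adjusted p = 0.00501, and Ppp1r15a, which restarts translation after PERK signalling, at -0.90, adjusted p = 0.00611. Cebpb is also a myeloid factor of macrophages and was at -5.86 to -2.81 on the 6 DC arrays and -0.27 to 0.56 on the 12 macrophage arrays. Stt3b, the catalytic subunit of the second form of the oligosaccharyltransferase, was higher in DCs, at 2.66 ± 0.33 (SE), adjusted p = 6.74e-05 and 1.89 ± 0.33 (SE), adjusted p = 0.00151, with 1.94, 2.16 and 2.44 in GFP-minus and 1.43, 1.36 and 1.24 in GFP-plus DCs against -2.19 to 0.48 in the macrophages, without overlap. Against the macrophages without CD103 the call was lost in GFP-plus arrays alone (1.32, adjusted p = 0.094). Selenos, an ERAD membrane factor, was higher than in the macrophages with CD103 (0.97 ± 0.18 SE, adjusted p = 0.00283). Pdia5, a disulfide isomerase, was higher than in those without (1.00 ± 0.24 SE, adjusted p = 0.0171), and Alg14, a partner in the second step of glycan assembly, was lower (-1.20 ± 0.30 SE, adjusted p = 0.0206). In GFP-plus arrays alone the calls of Atf3 (-1.04, adjusted p = 0.0545), Nupr1 (-1.26, adjusted p = 0.305), Ppp1r15a (-0.20, adjusted p = 0.766), Selenos (0.86, adjusted p = 0.0575) and Pdia5 (0.53, adjusted p = 0.4) were lost, and in GFP-minus arrays alone that of Alg14 (-0.60, adjusted p = 0.639). Cebpb and Atf3 were also lower against the macrophages without CD103 (-4.35, adjusted p = 4.87e-06, and -1.08, adjusted p = 0.00407), as was Ppp1r15a (-0.94, adjusted p = 0.00377). There Atf3 lost its call in GFP-minus arrays alone (-1.13, adjusted p = 0.0613) and Ppp1r15a in GFP-plus arrays alone (-0.55, adjusted p = 0.227). The call of Pdia5 was lost in the fit of the groups compared (adjusted p = 0.0539). That of Alg14 was lost without the 4 arrays of lowest weight (adjusted p = 0.0702) and when replicate 1 or 2 of the GFP-minus or 3 of the GFP-plus macrophages without CD103, or GFP-minus DC replicate 1, was omitted (adjusted p from 0.0516 to 0.0606).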

How the data were processed

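The deposited table holds log2 values of 18 Affymetrix arrays, each probe centred on its own median over the arrays. Base 2 was inferred from the values, as 1 probe spans 10.15 units. How the authors summarised and normalized the deposited log2 values is not stated in the sources used here. Per the labels' protocols, RNA was taken from sorted cells with TRIzol, cleaned on columns with DNase and amplified with a NuGEN kit. Probes with 1 symbol (23521 of 33793) gave 22180 genes, of which 1082 are means of several probes. The 10272 probes with several symbols or none were fitted apart. Group means were estimated over all 18 arrays by lmFit and eBayes of limma 3.58.1 (R 4.3.3), with 12 residual degrees of freedom and 2.089 from the variance prior. Of its contrasts, 7 are reported. Tests are two-sided, with Benjamini-Hochberg adjustment and a threshold of 0.05. Precision is limited by having 3 arrays in each group.

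The members, roles and lists were chosen with earlier results of these data known. Values on every array are given for members past the threshold in any comparison (8 of 36), for up to 2 members with the smallest F-test p in each role where fewer passed, and for others picked after their values were seen. Of other pathway genes, up to 6 per comparison that passed are named. Promoter sequences are RefSeq's; 7 members were missing from the promoter table: Alg2, Atf6, Derl1, Hyou1, Manf, Ostc and Sec61a1. Alternatives were quantile normalization, centring of columns, array weights, omission of the 4 arrays of lowest weight, a fit of the groups compared, a replicate block, single probes, robust variances, leaving out each array and, for populations, each GFP gate alone.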

Additional observations from a re-analysis of the deposited data

Results flagged for a closer look

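The effect of the GFP gate differed between DCs and the mean of both macrophage populations, by limma's test of that difference, for 5 ER genes and 1 shared probe. All had the lower value in DCs. The genes, adjusted over all genes, are 1 of the 36 members and 4 of the 105 measured genes of the wider list. Over all genes 1.33% passed and 1.15% passed lower. The shared probe was adjusted over the probes with several symbols or none, of which 0.165% passed lower. Of the wider list 75 genes lay below 0 and 30 above, with a median of -0.47. Its UPR genes had 12 above 0 and 8 below, with a median of 0.11. Alg5 differed by a log2 value of -3.10 ± 0.54 (SE, adjusted p = 0.015), and the probe shared by Pdia4 and Mir704 by -1.51 ± 0.26 (adjusted p = 0.0315). Of the wider pathway list, Mbtps2 differed by -3.92 ± 0.59 (adjusted p = 0.00613), Mbtps1 by -2.35 ± 0.48 (adjusted p = 0.0284), Ganab by -1.92 ± 0.36 (adjusted p = 0.0223) and Tram1 by -1.20 ± 0.23 (adjusted p = 0.0259). All 6 lost their call after quantile normalization, with adjusted p from 0.0717 to 0.184. Without the 4 arrays of lowest weight those of Alg5, Ganab and the shared probe were lost, with adjusted p from 0.0513 to 0.0709. Mbtps2 and Alg5 kept theirs when any single array was left out. Mbtps1 lost its call without any 1 of 7 arrays: GFP-plus DC replicate 1 or 3, GFP-minus DC replicate 2 or 3, GFP-plus replicate 3 of the macrophages with CD103, and GFP-plus replicate 2 or 3 of those without (adjusted p from 0.0507 to 0.09). Ganab lost it without GFP-plus DC replicate 1 or 3 or GFP-minus DC replicate 3 (0.0541 to 0.0651), and Tram1 without replicate 3 of either DC fraction or of the GFP-plus macrophages without CD103 (0.0511 to 0.0751). The shared probe lost it without any 1 of 8 arrays (0.0554 to 0.0795).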

How the results depend on the processing

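After quantile normalization 0 members passed for GFP in DCs and 0 in the interaction, with medians of -0.36 and -0.48. Over all 22180 genes 37 and 45 passed there. Array weights gave 4 members for GFP in DCs, beside 359 of all genes. In DCs against macrophages without CD103 they gave 7 members, beside 2169 of all genes, where 1800 passed in the main fit. The fit of the groups compared gave 0 members for GFP in DCs, beside 85 of all genes. Without the 4 arrays of lowest weight 0 passed in the interaction (median -0.63), beside 323 of all genes. With GFP-minus arrays alone, DCs against macrophages with and without CD103 gave 3 and 0 members (medians 0.48 and 0.38), beside 805 and 731 of all genes. The probe of Pdia4 and Mir704 turned to 0.01 against the macrophages with CD103. With GFP-plus arrays alone the medians were -0.19 and -0.57, and 7 members passed against the macrophages without CD103, beside 2096 of all genes. The cause was not tested. The main fit treated the arrays as unpaired. Correlations of same-numbered pairs between the GFP gates ran from 0.00283 to 0.0959 in DCs. In the macrophages with and without CD103 they ran from -0.138 to 0.183 and from 0.00762 to 0.248. Differently numbered pairs were not set beside them, so whether replicate numbers pair the arrays cannot be told. The fit with replicate as a block gave 2 members in the interaction, Alg5 and Hsp90b1, beside 473 of all genes. It also brought Pdia6 past the threshold for GFP in DCs (adjusted p = 0.0371). Leaving out 1 array gave, for GFP in DCs, 1 to 3 members and medians from -0.74 to -0.44; in macrophages with CD103 0 to 1 and -0.078 to 0.289; in those without 0 and 0.074 to 0.339; in the interaction 1 to 3 and -1.06 to -0.72; for DCs over macrophages with CD103 6 to 9 and 0.042 to 0.308; over those without 3 to 5 and -0.15 to 0.034; and between macrophages 0 to 1 and -0.291 to -0.042. Over all genes the calls for GFP in DCs ran from 37 to 711 and in the interaction from 45 to 728, against 351 and 295. Signal over background could not be read from centred values.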
